A study of Homo sapiens with 24 samples.

Results

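The transcription factor AP-1 was followed here through 8 of its genes, FOS, FOSB, FOSL1, FOSL2, JUN, JUNB, JUND and ATF3, in U2OS cells exposed to the glucocorticoid dexamethasone. The genes were taken by name from the table of exon counts, which holds 61533 genes. All 8 had counts in every library, and all 8 were among the 23651 genes that passed the filter on low counts and were tested.

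AP-1 is a dimer of basic leucine zipper (bZIP) proteins. FOS proteins (FOS, FOSB, FOSL1 and FOSL2) dimerize with JUN proteins, while JUN, JUNB and JUND can also pair among themselves, and ATF3 is a related bZIP protein that binds as a homodimer or with JUN partners. FOS, FOSB, JUN, JUNB and ATF3 are immediate-early genes, which serum, growth factors and stress switch on within minutes through the MAPK pathway, SRF with its ELK partners, and CREB-type factors, and whose RNAs are short-lived. Ligand-bound glucocorticoid receptor (GR) is widely known for restraining AP-1 activity, in part by contact between the proteins.

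RNA made during the last hour of treatment was labelled with 200 µM 4-thiouridine, isolated and sequenced (4sU-seq), so that each time point reports its own 1 h window of synthesis and of decay within that hour. U2OS is an established osteosarcoma line with little GR of its own. The 3 lines all carried a GR-HaloTag transgene under a CMV promoter, inserted with PiggyBac, selected with puromycin and sorted for matched nuclear GR: wild type (wt), K492A, which lowers RNA binding strongly and DNA binding less (SoF), or R470A, with DNA binding lowered to match that of SoF (Ctrl). Each line was 1 sorted pool, so construct and pool cannot be told apart. Every line was measured after 1, 2 and 3 h of 100 nM dexamethasone and after 0.01% ethanol (0 h), in stripped serum, with 2 libraries for each of the 12 groups and 24 in all. The medium was exchanged when treatment began and the length of the ethanol treatment is not given in the sources used here, so time since fresh medium and time in dexamethasone cannot be told apart in any comparison, those between treated times included. Nothing states that the 2 libraries of a group came from separate cultures, and the p-values measure the spread between libraries, which may be technical. According to the paper, replicates were biotinylated and pulled down in pairs. If a pair is the 2 libraries of a group, effects of pulldown and of group cannot be told apart, and the spread leaves the pulldown out.

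Library totals ran from 8106036 to 15820806 counts. CPM stands for counts scaled by the total and the TMM factor of a library. Of 8 markers of the bone-forming lineage, RUNX2, ALPL, COL1A1 and SPARC were detected throughout, BGLAP stayed at or under 1.32 CPM, and SP7, COL1A2 and IBSP were at or near 0 (at most 2, 8 and 1 counts in a library), and the markers of blood (PTPRC), endothelium (PECAM1) and epithelium (EPCAM) stayed at or under 3.60 CPM. NR3C1, the GR gene, which counts the transgene as well, stood at 552 and 824 CPM at 0 h for wt, 2833 and 2428 for SoF and 3202 and 3431 for Ctrl. At 1 h NR3C1 was higher in every line, with 1312 and 1595 CPM for wt, 6273 and 5329.8 for SoF and 5592 and 7658 for Ctrl. By 3 h it was lower than at 0 h in every line, with 334 and 366 CPM for wt, 1118 and 1130 for SoF and 1764 and 1627 for Ctrl. FKBP5, a direct GR target, rose at 3 h in every line (log2 change 3.11 for wt, 3.68 for SoF and 2.39 for Ctrl). PER1, another target, had 1.21 for wt, 1.04 for SoF and 1.02 for Ctrl, all called, and TSC22D3 had 2.04 for wt, 2.33 for SoF and 0.10 for Ctrl, the last not called (edgeR adjusted p = 0.885). For FOS, FOSB, JUN and ATF3 the 2 libraries of a group differed most in wt at 0 h, with 233 and 536 CPM for ATF3 in replicates 1 and 2, for FOSL1 and JUNB in Ctrl at 0 h, for JUND in SoF at 0 h and for FOSL2 in wt at 2 h, and each comparison with 0 h is set beside one between treated times.

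Proximal promoters of immediate-early genes are known for CREB-type sites beside a TATA box. The 250 bases upstream of the start are printed for FOS and FOSB, which fell steeply, and for JUN and JUND, which fell less or did not pass the test (RefSeq, GRCh38.p14, 5′ to 3′ on the coding strand). Capitals mark TGACG or its complement CGTCA (the core of the CREB site), the full TGACGTCA, TATAAA, and AGAACA (a GR half-site), all searched on both strands. TGACGTCA holds TGACG within it.
FOS (chr14:75278578-75278827, plus strand): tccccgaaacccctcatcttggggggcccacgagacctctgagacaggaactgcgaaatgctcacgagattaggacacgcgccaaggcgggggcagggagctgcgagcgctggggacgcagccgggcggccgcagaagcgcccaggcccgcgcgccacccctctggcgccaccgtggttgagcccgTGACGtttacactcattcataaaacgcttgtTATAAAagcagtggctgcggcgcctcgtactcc
FOSB (chr19:45467746-45467995, plus strand): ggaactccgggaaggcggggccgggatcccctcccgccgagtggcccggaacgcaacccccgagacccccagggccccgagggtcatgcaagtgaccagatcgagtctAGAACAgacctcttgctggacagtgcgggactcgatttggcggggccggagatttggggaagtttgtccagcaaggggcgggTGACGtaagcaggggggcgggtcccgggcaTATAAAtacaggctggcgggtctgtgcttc
JUN (chr1:58784048-58784297, minus strand): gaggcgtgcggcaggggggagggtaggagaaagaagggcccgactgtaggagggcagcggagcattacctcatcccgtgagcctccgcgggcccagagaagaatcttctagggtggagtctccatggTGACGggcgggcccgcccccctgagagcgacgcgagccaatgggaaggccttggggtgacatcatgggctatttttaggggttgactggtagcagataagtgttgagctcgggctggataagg
JUND (chr19:18281623-18281872, minus strand): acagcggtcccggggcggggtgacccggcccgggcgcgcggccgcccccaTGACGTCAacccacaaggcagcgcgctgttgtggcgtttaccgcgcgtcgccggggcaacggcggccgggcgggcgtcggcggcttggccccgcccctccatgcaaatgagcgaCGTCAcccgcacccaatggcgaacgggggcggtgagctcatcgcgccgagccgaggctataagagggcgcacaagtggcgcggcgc
The TGACG core was in the windows of 6 of the 7 genes with an entry (FOS, FOSB, FOSL2, JUN, JUNB and JUND; FOSL1 has none) and in 21.22% of 35116 promoters of the same length. It began 64 bases upstream of the start in FOS and 60 in FOSB, and TATAAA began 33 and 30 bases upstream. TATAAA was also in the JUNB window, at 31 bases, in the second ATF3 window, at 230 bases, and in 10.72% of all promoters. The full TGACGTCA was in the JUND window alone among these genes (1.65% of promoters), and the exact AP-1 site TGACTCA was in no window (4.2%). Related letters were not searched, such as TGACATCA, which is in the JUN window and the first ATF3 window. AGAACA was in the FOSB window (12.39% of promoters). The SRF-binding CArG box was in no window, and in 1.16% of all promoters. Sites more than 250 bases upstream were not searched, for SRF or any other factor. Neither of the 2 windows listed for ATF3 held the TGACG core. ATF3 has 10 annotated transcripts, and starts of the gene other than these 2 were not searched. A match gives letters only, and these windows leave out distal elements.

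At 3 h of dexamethasone, 5 of the 8 AP-1 genes were lower than at 0 h in all lines: FOS, FOSB, FOSL1, JUN and ATF3 (edgeR quasi-likelihood F test, Benjamini-Hochberg adjusted p under 0.05). JUNB was also lower in Ctrl, which made 5 of 8 called lower for wt, 5 for SoF and 6 for Ctrl. Over all genes tested the shares called lower were 4.12% for wt, 8.11% for SoF and 5.60% for Ctrl. FOSL2 went the other way and was called higher in SoF, 1 of 8, against 11.2% of all genes. No member was called higher in wt or Ctrl, where 6.60% and 8.58% of all genes were. The median log2 change of the 8 genes was -1.09 for wt, -1.09 for SoF and -1.25 for Ctrl, beside -0.03, -0.03 and -0.02 over all genes. Less RNA per cell and fewer cells making it cannot be told apart in these bulk libraries.

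**Figure D1:**
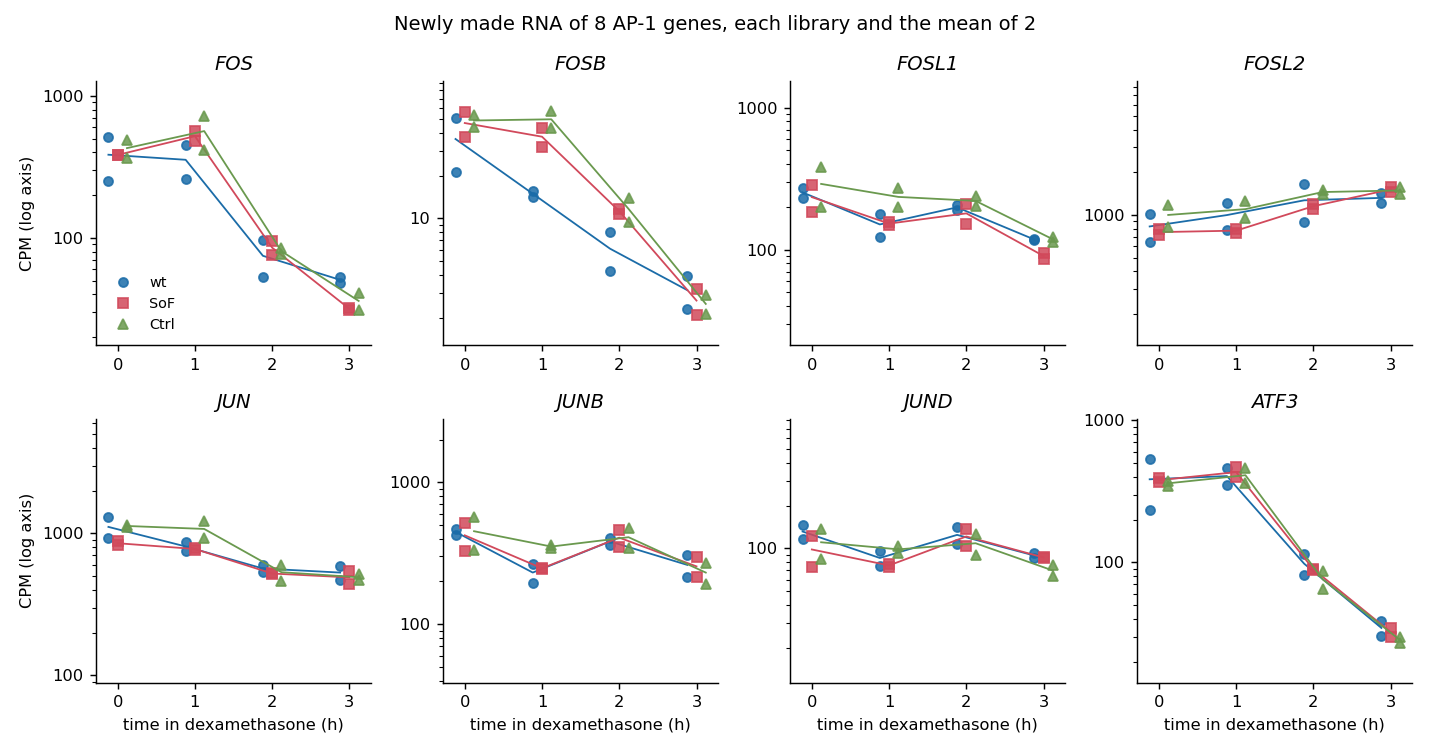
Level of each AP-1 gene (CPM, log axis spanning the same ratio in every panel) by time in dexamethasone, with 1 point per library and a line through the mean of the 2 libraries of each group. FOS and ATF3 drop after 1 h in all 3 lines, FOSB does so in SoF and Ctrl and is lower from 1 h on in wt, JUN and FOSL1 drop less, FOSL2 drifts upward, and the means of JUNB and JUND are lower at 1 and 3 h than at 0 and 2 h in wt and SoF.

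FOS, the founding member of the family, fell most steeply between 1 and 2 h. The gene (ENSG00000170345.10) lies at chr14:75278826-75282230 on the plus strand of hg38, with 4 exons in its main transcript. In wt, FOS measured 253 and 518 CPM at 0 h, 449 and 261 at 1 h, 96.8 and 52.8 at 2 h, and 48.1 and 53.1 at 3 h. In SoF, FOS measured 384 and 385 CPM at 0 h, 564 and 478 at 1 h, 94.9 and 75.7 at 2 h, and 32.1 and 31.2 at 3 h. In Ctrl, FOS measured 366 and 492.2 CPM at 0 h, 413 and 718 at 1 h, 77.0 and 84.2 at 2 h, and 31.1 and 40.8 at 3 h. The libraries at 2 and 3 h lay below those at 0 and 1 h in each line with no overlap. The fall at 2 h was 5.14-fold for wt, 4.50-fold for SoF and 5.32-fold for Ctrl (edgeR adjusted p = 0.000126, 0.000146 and 6.06e-05). By 3 h the log2 change from 0 h was -2.93 (SE 0.33) for wt, -3.60 (SE 0.34) for SoF and -3.58 (SE 0.34) for Ctrl, which is 7.61-, 12.1- and 11.9-fold lower (edgeR adjusted p = 4.75e-06, 2.87e-07 and 6.47e-07). No alternative setting ended any of these 6 calls. At 1 h the values of the groups overlapped those at 0 h in wt and Ctrl, while in SoF both 1 h libraries lay above both at 0 h, by a log2 change of 0.44 that did not pass the test (edgeR adjusted p = 0.802).

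FOSB, which forms AP-1 dimers like FOS and is known for its long-lived splice form in neurons, was the least abundant of the 8 genes and fell the furthest. It lies at chr19:45467995-45475179 on the plus strand (ENSG00000125740.14), and its span overlaps ERCC1 on the opposite strand without any shared exon base. In wt, FOSB measured 21.3 and 51.3 CPM at 0 h, 14.2 and 15.7 at 1 h, 8.01 and 4.25 at 2 h, and 3.95 and 2.31 at 3 h. In SoF, FOSB measured 37.4 and 56.6 CPM at 0 h, 31.7 and 43.7 at 1 h, 11.7 and 10.8 at 2 h, and 2.10 and 3.18 at 3 h. In Ctrl, FOSB measured 53.8 and 44.3 CPM at 0 h, 43.2 and 56.7 at 1 h, 9.40 and 14.0 at 2 h, and 2.12 and 2.88 at 3 h. Its 3 h libraries held 25 to 53 counts each, and in CPM all lay under every earlier library of the same line. At 3 h the fall was 11.6-fold for wt, 17.8-fold for SoF and 19.6-fold for Ctrl, with log2 changes of -3.54 (SE 0.38), -4.15 (SE 0.40) and -4.29 (SE 0.40) (edgeR adjusted p = 3.39e-06, 3.56e-07 and 6.16e-07). At 2 h it was 5.84-, 4.16- and 4.16-fold (edgeR adjusted p = 0.000181, 0.000519 and 0.000506). No alternative setting ended these calls. In wt both 1 h libraries already lay below both 0 h libraries (log2 change -1.28 (SE 0.33), edgeR adjusted p = 0.151), and without wt 0 h replicate 1 this passed the test at -1.80 (adjusted p = 0.0180). In SoF and Ctrl the 1 h and 0 h values overlapped.

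FOSL1 (FRA-1) is a FOS relative without the FOS transactivation domain that is common in transformed and mesenchymal cells. It lies at chr11:65892049-65900573 on the minus strand (ENSG00000175592.9). In wt, FOSL1 measured 273 and 232 CPM at 0 h, 123 and 177 at 1 h, 206 and 191 at 2 h, and 119 and 117 at 3 h. In SoF, FOSL1 measured 285 and 183 CPM at 0 h, 156 and 149 at 1 h, 208 and 152 at 2 h, and 85.8 and 94.4 at 3 h. In Ctrl, FOSL1 measured 381 and 199.7 CPM at 0 h, 269.7 and 200.4 at 1 h, 202 and 239 at 2 h, and 113 and 123 at 3 h. All 3 h libraries lay below the other libraries of their line, though in wt the 1 h library of replicate 1, at 123 CPM, was close to them. The fall by 3 h was 2.15-fold for wt, 2.60-fold for SoF and 2.46-fold for Ctrl, with log2 changes of -1.10 (SE 0.24), -1.38 (SE 0.25) and -1.30 (SE 0.25) (edgeR adjusted p = 0.00487, 0.000464 and 0.00116). Without wt 3 h replicate 2 the wt call was lost at nearly the same size (-1.08, adjusted p = 0.0619). At 2 h no line passed the test (log2 change -0.35, -0.38 and -0.40).

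FOSL2 (FRA-2), the other FOS relative of this kind and a regulator of bone-forming and bone-resorbing cells, was the one member whose 3 h levels stood above 0 h. It lies at chr2:28392448-28417317 on the plus strand (ENSG00000075426.12) and overlaps the antisense gene FOSL2-AS1 without a shared exon base. In wt, FOSL2 measured 648 and 1012 CPM at 0 h, 788 and 1209 at 1 h, 897 and 1639.7 at 2 h, and 1222 and 1418 at 3 h. In SoF, FOSL2 measured 796 and 719 CPM at 0 h, 803 and 748 at 1 h, 1199 and 1108 at 2 h, and 1455 and 1575 at 3 h. In Ctrl, FOSL2 measured 1177 and 824 CPM at 0 h, 1247 and 952 at 1 h, 1494 and 1408 at 2 h, and 1573 and 1404 at 3 h. In each line both 3 h libraries lay above both 0 h libraries, and in SoF the 2 h libraries lay in between. The log2 change was 0.67 (SE 0.25, edgeR adjusted p = 0.0908) for wt, 1.00 (SE 0.25, adjusted p = 0.00706) for SoF and 0.57 (SE 0.25, adjusted p = 0.129) for Ctrl. SoF alone passed the test, at 2.00-fold higher. That call was lost without SoF 0 h replicate 2 (0.93, adjusted p = 0.0776) or SoF 3 h replicate 2 (0.94, adjusted p = 0.0546), and calls appeared in wt without wt 0 h replicate 2 (1.04, adjusted p = 0.0418) and in Ctrl without Ctrl 0 h replicate 1 (0.87, adjusted p = 0.0480), and in both without the filter on low counts (adjusted p = 0.000554 and 0.00412).

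The makeup of the FOS family's new RNA, compared per length as RPKM (CPM divided by exon length in kilobases, computed here), shifted from FOS to FOSL2. Taken per exon-union length, FOS and FOSL1 each supplied about as much as FOSL2 in ethanol. Over the 6 libraries at 0 h the median share of the family's summed RPKM was 33.9% for FOS, 34.2% for FOSL1, 30.3% for FOSL2 and 2.03% for FOSB. That likeness depends on the length used: the exon union of FOS has 3186 bases against 2104 in its main transcript. FOSL1 has 1887 against 1702 and FOSL2 7162 against 6713, so main-transcript lengths would raise the FOS share. At 3 h FOSL2 held a median of 73.7% (range 68.4 to 78.5%), FOSL1 21.5% (17.6 to 25.3%), FOS 4.27% (3.37 to 6.06%) and FOSB 0.169% (0.132 to 0.285%). The FOSL2 share at 3 h in the lowest library was above its highest share at 0 h (33.5%), 1 h (48.6%) or 2 h (65.9%). FOS peaked in share at 1 h, with a median of 44.1% and values from 23.6 to 47.5%, the lowest being wt replicate 2 and the next Ctrl replicate 1. Shares describe RNA made in the last hour, and a share moves when any other member moves.

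**Figure D2:**
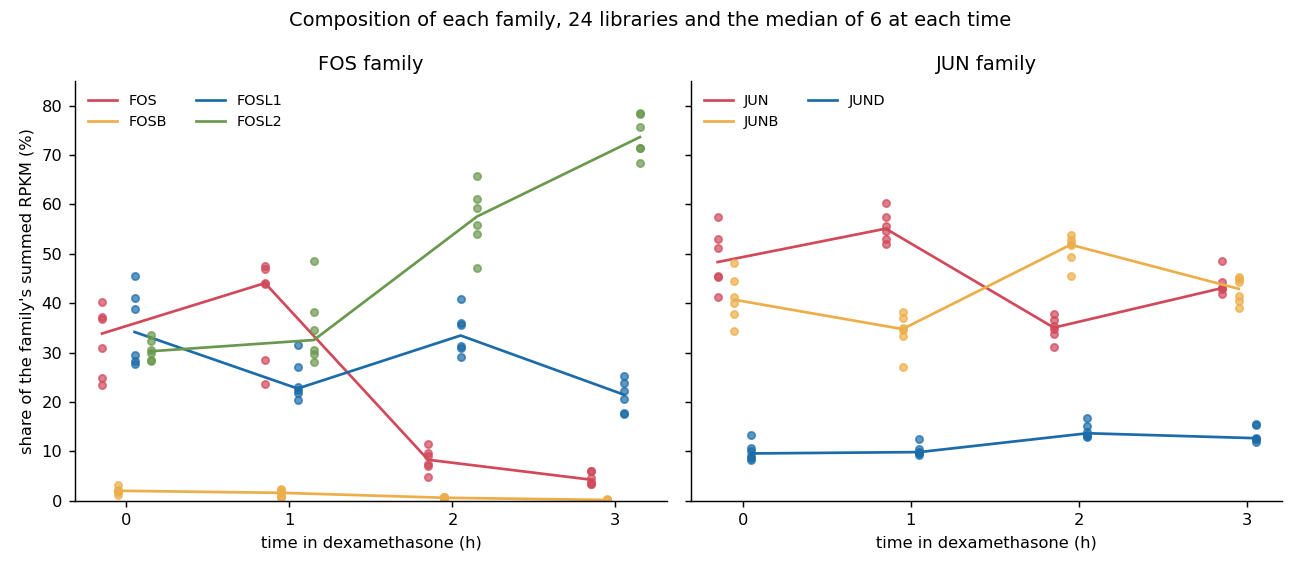
Share of each gene in the summed RPKM of its family (%), by time in dexamethasone, with 1 point per library and a line through the median of the 6 libraries at each time. In the FOS family FOS goes from a median of 33.9% at 0 h to 4.27% at 3 h while FOSL2 goes from 30.3% to 73.7%; in the JUN family JUN and JUNB stay the main members and cross at 2 h.

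JUN, the classical partner of FOS proteins and a gene that AP-1 itself is known to activate, fell in every line but far less than FOS. It lies at chr1:58776845-58784048 on the minus strand (ENSG00000177606.8), with 1 exon in its main transcript. In wt, JUN measured 925 and 1299 CPM at 0 h, 865 and 754 at 1 h, 598 and 534 at 2 h, and 468 and 592 at 3 h. In SoF, JUN measured 883 and 824 CPM at 0 h, 763 and 792 at 1 h, 529 and 515 at 2 h, and 439.6 and 540.5 at 3 h. In Ctrl, JUN measured 1154 and 1104 CPM at 0 h, 923 and 1229 at 1 h, 463 and 603 at 2 h, and 467 and 515 at 3 h. In each line all 2 h and 3 h values lay below all 0 h and 1 h values. The fall was in place by 2 h, at 1.96-fold for wt, 1.63-fold for SoF and 2.12-fold for Ctrl (edgeR adjusted p = 0.00320, 0.0219 and 0.000703), and stood at 2.10-, 1.74- and 2.30-fold at 3 h, with log2 changes of -1.07 (SE 0.18), -0.80 (SE 0.18) and -1.20 (SE 0.18) (adjusted p = 0.000520, 0.00367 and 0.000174). The 2 h call in SoF was lost without any 1 of its 4 libraries (log2 change -0.77 to -0.65, adjusted p = 0.0639 to 0.160). In wt the 2 h call was lost without wt 0 h replicate 2 (-0.71, adjusted p = 0.115) or wt 2 h replicate 2 (-0.92, adjusted p = 0.0890), and in SoF the 3 h call without SoF 3 h replicate 1 (-0.66, adjusted p = 0.0744).

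JUNB, a weaker activator than JUN that often opposes it, had a time course unlike those of FOS and JUN. It is a gene of 1 exon at chr19:12791486-12793315 on the plus strand (ENSG00000171223.6), and 259 of its exon bases (14.2%) are also exon of HOOK2 on the opposite strand, so that its counts are uncertain to the extent that strand was not used in counting. In wt, JUNB measured 427 and 468 CPM at 0 h, 197 and 266 at 1 h, 363 and 403 at 2 h, and 215 and 308 at 3 h. In SoF, JUNB measured 520.1 and 325 CPM at 0 h, 246 and 249 at 1 h, 462 and 352 at 2 h, and 215 and 296 at 3 h. In Ctrl, JUNB measured 569 and 334 CPM at 0 h, 344 and 360.5 at 1 h, 343 and 477 at 2 h, and 190.4 and 272 at 3 h. In wt and SoF the 1 h and 3 h libraries lay below those at 0 h and 2 h, whereas in Ctrl the 0, 1 and 2 h libraries overlapped and those at 3 h were lowest. At 3 h the log2 change from 0 h was -0.77 (SE 0.26, edgeR adjusted p = 0.0578) for wt, -0.73 (SE 0.26, adjusted p = 0.0512) for SoF and -0.97 (SE 0.26, adjusted p = 0.0147) for Ctrl, which alone passed the test. The Ctrl call was lost without Ctrl 0 h replicate 1 (-0.52, adjusted p = 0.201) or Ctrl 3 h replicate 1 (-0.73, adjusted p = 0.171). JUNB was called lower in wt and SoF as well by DESeq2 (adjusted p = 0.0273 and 0.0260), by edgeR on that line only (0.0292 and 0.0379) and without the filter on low counts (9.24e-05 and 0.000259). In SoF it was also called with size factors by relative log expression (adjusted p = 0.0441) and without SoF 0 h replicate 2 (-1.03, adjusted p = 0.0256).

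JUND, the JUN relative that resting cells keep expressed and that is often growth-restraining, had the narrowest range. It is a gene of 1 exon at chr19:18279694-18281622 on the minus strand (ENSG00000130522.6). In wt, JUND measured 146 and 117 CPM at 0 h, 95.9 and 75.4 at 1 h, 141 and 108 at 2 h, and 86.0 and 92.3 at 3 h. In SoF, JUND measured 122 and 74.5 CPM at 0 h, 78.1 and 73.8 at 1 h, 138 and 105 at 2 h, and 85.1 and 87.7 at 3 h. In Ctrl, JUND measured 137 and 84.1 CPM at 0 h, 92.4 and 105 at 1 h, 90.3 and 127 at 2 h, and 63.7 and 76.1 at 3 h. The 24 values spanned 63.7 to 146 CPM, the narrowest ratio of the 8 genes, and the 3 h libraries overlapped those at 0 h in SoF. No comparison with 0 h passed the test in any line, and at 3 h the 95% interval of the log2 change was -1.04 to -0.08 for wt, -0.67 to 0.29 for SoF and -1.15 to -0.18 for Ctrl (edgeR adjusted p = 0.128, 0.606 and 0.0598). In Ctrl a call appeared without Ctrl 0 h replicate 2 (-0.97, adjusted p = 0.0226), with DESeq2 (adjusted p = 0.0303), on that line only (0.0454) and without the filter on low counts (0.00304), which also called JUND in wt (0.0235).

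Within the JUN family, JUN and JUNB supplied most of the RPKM at every time. The median share of JUN was 48.3% at 0 h, 55.1% at 1 h, 35.1% at 2 h and 43.1% at 3 h, while that of JUNB was 40.7%, 34.8%, 51.9% and 42.9%. At 2 h JUNB was above JUN in all 6 libraries, its lowest share there (45.4%) exceeding the highest of JUN (37.8%). JUND held 9.58% at 0 h and 12.7% at 3 h. The exon union of JUN has 3624 bases against 3257 in its main transcript, so main-transcript lengths would raise the JUN share.

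ATF3, a stress-induced factor that mostly represses as a homodimer, kept closest to FOS and fell in nearly the same proportion in the 3 lines. It lies at chr1:212565334-212620777 on the plus strand (ENSG00000162772.17). In wt, ATF3 measured 233 and 536 CPM at 0 h, 348 and 463 at 1 h, 114 and 81.9 at 2 h, and 38.9 and 30.1 at 3 h. In SoF, ATF3 measured 366 and 393 CPM at 0 h, 398 and 467 at 1 h, 90.0 and 88.8 at 2 h, and 30.0 and 34.6 at 3 h. In Ctrl, ATF3 measured 345 and 376 CPM at 0 h, 362 and 460.3 at 1 h, 65.2 and 86.6 at 2 h, and 29.6 and 27.2 at 3 h. In each line the 4 libraries at 0 and 1 h lay above those at 2 h, and these above those at 3 h. At 2 h the fall was 3.93-fold for wt, 4.24-fold for SoF and 4.74-fold for Ctrl (edgeR adjusted p = 0.000111, 3.12e-05 and 2.34e-05). By 3 h it was 11.2-, 11.7- and 12.7-fold, with log2 changes of -3.48 (SE 0.28), -3.55 (SE 0.28) and -3.67 (SE 0.29) (adjusted p = 5.96e-08, 2.81e-08 and 5.92e-08). Among all 23651 genes tested it ranked 8 by p for wt, 13 for SoF and 4 for Ctrl at 3 h. No alternative setting ended these 6 calls, although the wt 0 h libraries differed more than any other pair for ATF3, at 233 and 536 CPM.

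**Figure D3:**
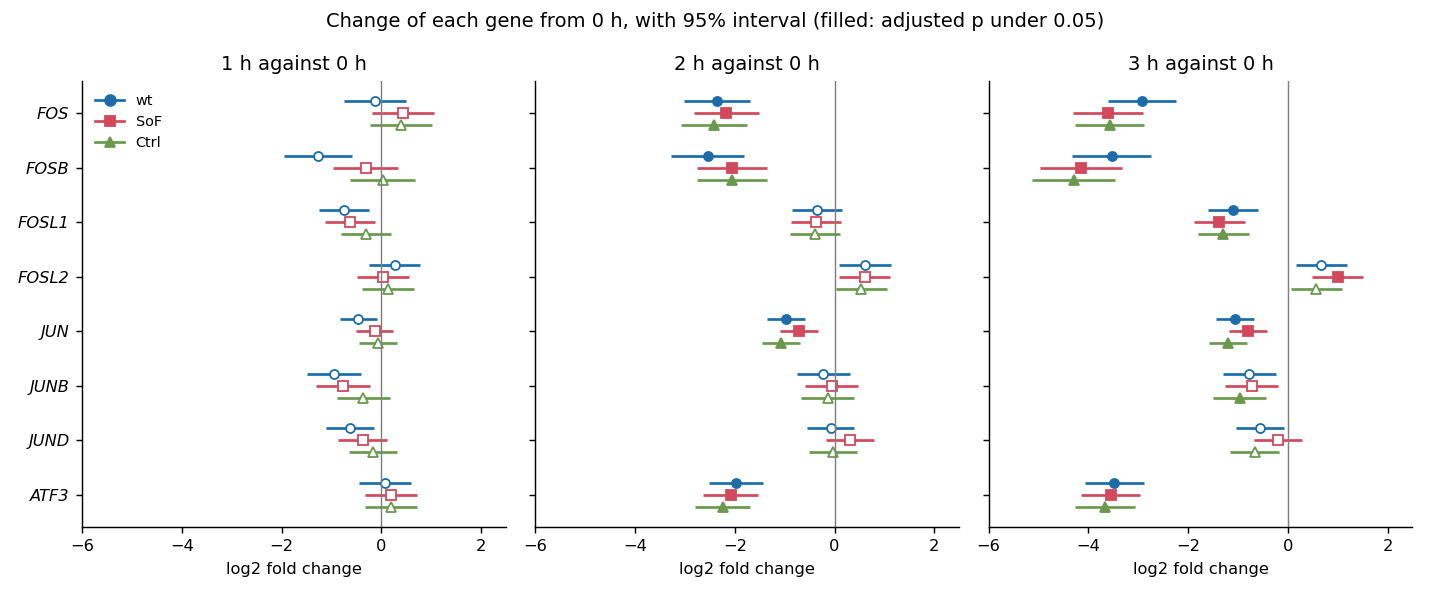
Log2 fold change of each AP-1 gene from 0 h at 1, 2 and 3 h in wt, SoF and Ctrl, with its 95% interval; filled symbols passed the test at an adjusted p under 0.05. No symbol is filled at 1 h, FOS, FOSB, JUN and ATF3 are filled at 2 h in all lines, and at 3 h FOSL1 is filled as well, with FOSL2 in SoF to the right of 0 and JUNB in Ctrl to the left.

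The time course of the 8 genes fell into separate steps. In the first hour no member passed the test in any line, 0 of 8 in each, where the shares of all genes called in either direction were 0.156% for wt, 0.165% for SoF and 0.0465% for Ctrl. At an unadjusted p under 0.05, edgeR counted 2602, 1645 and 423 of all genes in wt, SoF and Ctrl and, among the members, FOSB, FOSL1, JUN, JUNB and JUND for wt, FOSL1 and JUNB for SoF and none for Ctrl, all lower, and DESeq2 called JUNB in wt. Without the filter on low counts edgeR called FOSB, FOSL1, JUNB and JUND lower at 1 h in wt and FOSL1 and JUNB in SoF. At 2 h the same 4 genes, FOS, FOSB, JUN and ATF3, were called lower than at 0 h in every line, against 1.22%, 1.48% and 2.38% of all genes called lower. The comparisons with 0 h share their ethanol libraries.

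With the ethanol libraries used only for the shared estimate of spread, 3 h was set against 1 h. FOS, FOSB, JUN and ATF3 were lower at 3 h in wt (4 of 8, against 6.67% of all genes), and with FOSL1 in SoF (5 of 8, 15.0%) and in Ctrl (5 of 8, 6.81%). FOSL2 was higher in SoF (1 of 8, 17.6% of all genes). The fall of FOS from 1 to 3 h was 7.01-fold for wt, 16.5-fold for SoF and 15.7-fold for Ctrl (edgeR adjusted p = 1.19e-05, 1.64e-07 and 3.31e-07). That of FOSB was 4.79-, 14.3- and 20.0-fold. ATF3 fell 11.8-, 13.4- and 14.5-fold. The calls of these 3 genes stood without any 1 library. Single libraries ended the FOSL1 call in SoF (any 1 of its 4, log2 change -0.80 to -0.67, adjusted p = 0.0777 to 0.140) and in Ctrl (Ctrl 1 h replicate 1 or either 3 h library, -1.05 to -0.76, adjusted p = 0.0548 to 0.109), the JUN call in wt (wt 1 h replicate 1 or either 3 h library, -0.78 to -0.44, adjusted p = 0.0572 to 0.217) and in SoF (SoF 1 h replicate 2 or 3 h replicate 1, -0.63 to -0.50, adjusted p = 0.0610 to 0.128), and the FOSL2 call in SoF (SoF 1 h replicate 2, 0.92, adjusted p = 0.0553).

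The steps between neighbouring treated times placed most of the loss of FOS and ATF3 between 1 and 2 h. From 1 to 2 h the log2 change of FOS was -2.24 (SE 0.32) for wt, -2.61 (SE 0.32) for SoF and -2.81 (SE 0.32) for Ctrl, and that of ATF3 was -2.05, -2.27 and -2.43. FOS, FOSB and ATF3 were called lower in wt (3 of 8, 4.67% of all genes), and with JUN in SoF (4 of 8, 7.18%) and Ctrl (4 of 8, 3.31%). JUND was higher at 2 h than at 1 h in SoF (0.68 (SE 0.23), edgeR adjusted p = 0.0471), 1 of 8 against 11.1% of all genes. JUNB had 0.73 in wt (edgeR adjusted p = 0.0630), 0.72 in SoF (0.0567) and 0.22 in Ctrl (0.624), none called. DESeq2 called JUNB higher in wt (adjusted p = 0.0382) and SoF (0.0290), where it called 3361 and 4307 of all genes in either direction. From 2 to 3 h ATF3 fell further in every line, with a log2 change of -1.51 for wt, -1.47 for SoF and -1.42 for Ctrl, and was 1 of 8 called in wt (0.169% of all genes). FOS, FOSB and FOSL1 were called with it in SoF (4 of 8, 0.816%) and FOSB in Ctrl (2 of 8, 0.486%). Leaving out a library ended the FOSB call of wt from 1 to 2 h (wt 1 h replicate 1 or 2 or wt 2 h replicate 2, -1.34 to -0.91, adjusted p = 0.0840 to 0.216), the JUN call of SoF from 1 to 2 h (any 1 of 4, -0.59 to -0.54, adjusted p = 0.0983 to 0.168) and the JUND call (either SoF 1 h library or SoF 2 h replicate 1, 0.47 to 0.73, adjusted p = 0.126 to 0.369). From 2 to 3 h it ended every call in SoF and both in Ctrl for at least 1 library, and that of ATF3 in wt without wt 2 h replicate 1 or wt 3 h replicate 2 (-1.33 to -1.23, adjusted p = 0.187 to 0.345). For SoF from 2 to 3 h, FOS and FOSL1 were lost without any 1 of the 4 libraries (-1.58 to -1.26, adjusted p = 0.0515 to 0.161 for FOS, -1.20 to -0.75, adjusted p = 0.0529 to 0.299 for FOSL1), FOSB without SoF 2 h replicate 1 or 3 h replicate 1 (-2.03 to -1.81, adjusted p = 0.0515 to 0.150) and ATF3 without SoF 3 h replicate 1 (-1.36, adjusted p = 0.0935). For Ctrl, FOSB was lost without Ctrl 2 h replicate 2 or either 3 h library (-2.47 to -1.90, adjusted p = 0.0616 to 0.210) and ATF3 without Ctrl 2 h replicate 2 or Ctrl 3 h replicate 1 or Ctrl 3 h replicate 2 (-1.47 to -1.19, adjusted p = 0.121 to 0.239).

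Whether the GR mutations, SoF lowering both RNA and DNA affinity and Ctrl lowering DNA affinity, altered the AP-1 response was asked with the difference between lines in the change from 0 to 3 h. For FOS that change was -2.93 (wt), -3.60 (SoF) and -3.58 (Ctrl) on the log2 scale. SoF differed from wt by -0.67 (95% interval -1.58 to 0.23), Ctrl from wt by -0.65 (-1.55 to 0.26), and SoF from Ctrl by -0.03 (-0.94 to 0.89). For ATF3 the differences were -0.07 (-0.84 to 0.69), -0.19 (-0.95 to 0.58) and 0.11 (-0.66 to 0.88). Those of JUN were 0.27 (-0.26 to 0.80), -0.13 (-0.66 to 0.40) and 0.40 (-0.13 to 0.93). FOSL2, called in SoF alone, differed between SoF and wt by 0.33 (-0.39 to 1.06) and between SoF and Ctrl by 0.43 (-0.30 to 1.15). JUNB, called in Ctrl alone, differed between Ctrl and wt by -0.20 (-0.95 to 0.56). No member was called in any of the 3 pairs (0 of 8; all genes 0% for SoF against wt, 0% for Ctrl against wt and 0.0127% for SoF against Ctrl, edgeR), no member reached an unadjusted p under 0.05, and DESeq2 called none either. At that unadjusted level there were 558, 845 and 671 of all genes. The bound of the 24 intervals furthest from 0 was -1.93 for FOSB and -1.58 for FOS, and for the other genes it ran from 0.93 for JUN to 1.16 for JUND on the log2 scale.

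**Figure D4:**
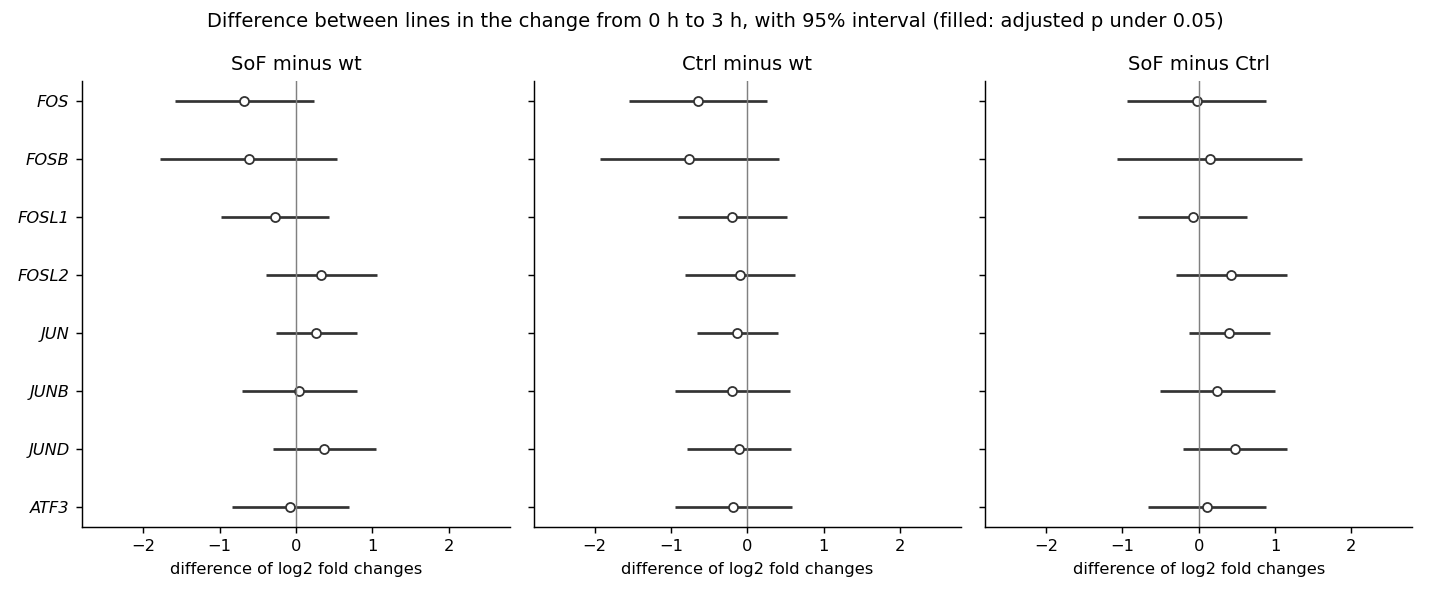
Difference between lines in the log2 change of each AP-1 gene from 0 to 3 h, with its 95% interval, for SoF minus wt, Ctrl minus wt and SoF minus Ctrl. All 24 intervals cross 0 and no symbol is filled.

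Ignoring time, with 8 libraries per line, none of the 8 genes was called between lines (0 of 8 in each pair), where 8.02% of all genes were called for SoF against wt, 4.77% for Ctrl against wt and 3.61% for SoF against Ctrl. No member reached an unadjusted p under 0.05 in that fit. Of all 21122 genes, 5308 did for SoF against wt, 3988 for Ctrl against wt and 3019 for SoF against Ctrl. FOSB had the largest difference, 0.70 for SoF against wt (95% interval -0.73 to 2.14) and 0.90 for Ctrl against wt (-0.54 to 2.34), in a fit whose spread includes the time effect. With the mean over the 4 times in the fit over 12 groups, FOSB was called in SoF against wt (0.58, edgeR adjusted p = 0.0300). FOSB was also called in Ctrl against wt (0.70, adjusted p = 0.0168), and FOSL1 in SoF against Ctrl (-0.40, adjusted p = 0.0380). Each was 1 of 8. Of all 23651 genes that setting called 5234 for SoF against wt, 3125 for Ctrl against wt and 2119 for SoF against Ctrl. At 1 h the FOSB values were 14.2 and 15.7 CPM for wt, 31.7 and 43.7 for SoF and 43.2 and 56.7 for Ctrl, with no overlap between wt and either mutant. NR3C1 at 1 h was 1312 and 1595 CPM for wt, 6273 and 5329.8 for SoF and 5592 and 7658 for Ctrl, and its part in the FOSB difference was not tested.

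Ordered by mean level over the 12 groups of line and time, the genes differed in how far neighbours separated. For ATF3 all 6 groups at 0 and 1 h stood above the 3 groups at 2 h and these above the 3 groups at 3 h, and 7 of the 11 neighbouring pairs overlapped in their 2 libraries. For FOS, where 9 of 11 pairs overlapped, the breaks lay between wt at 1 h and SoF at 2 h and between wt at 3 h and Ctrl at 3 h, the lowest groups being Ctrl and SoF at 3 h. For FOSB 7 of 11 pairs overlapped, and wt at 1 h stood apart from the other groups at 0 and 1 h. JUN, JUNB and FOSL1 had 9 of 11 overlapping pairs each. For FOSL2 and JUND all 11 neighbouring pairs overlapped, so no break split their order. Neighbours by mean are the closest groups, and groups further apart could still separate, as FOSL2 at 3 h did from 0 h in each line.

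The genes whose log2 CPM over the 24 libraries was most like that of each member were sought among 11406 genes with a mean of at least 10 CPM, as a description in which points share lines, times and libraries. Like FOS ran EGR1 (0.985), ATF3 (0.973) and EGR2 (0.973), with Pearson correlations in parentheses. Like FOSB ran EGR2 (0.985), EGR1 (0.968) and CSRP1 (0.952). The 3 most like ATF3 were EGR1 (0.981), PTGS2 (0.979) and ADAMTS1 (0.975). EGR1 and EGR2 encode immediate-early zinc finger factors and PTGS2 a prostaglandin synthase. Nearest to JUN were AMOT (0.934), STARD8 (0.926) and SRF (0.915), and nearest to FOSL1 were NOCT (0.950), IER3 (0.928) and HCG20 (0.910). JUNB was most like NFKBIE (0.916), CD83 (0.873) and IER3 (0.869), and JUND most like RNF10 (0.879), CCDC97 (0.865) and FAM120AOS (0.861). FOSL2 ran with SH3TC1 (0.927), LOXL1-AS1 (0.924) and DFFA (0.919). Among the members themselves FOS correlated at 0.973 with ATF3, 0.942 with FOSB and 0.905 with JUN, but at 0.266 with JUNB and 0.131 with JUND, which in turn correlated at 0.798 with each other. FOSL2 correlated at -0.771 with FOS.

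Other immediate-early genes fell with FOS. Of the 18 in the list, all tested, 15 were called lower and 0 higher at 3 h for wt, 15 and 1 for SoF and 15 and 0 for Ctrl, beside 6.60%, 11.2% and 8.58% of all genes called higher and 4.12%, 8.11% and 5.60% called lower, with median log2 changes of -1.51, -1.78 and -1.55. EGR1, a zinc finger factor driven by the same SRF and ELK sites as FOS, went from 2953 and 5682 CPM to 209 and 229 for wt, from 4799 and 4605 to 132 and 141 for SoF and from 5294 and 5076 to 169.9 and 190.2 for Ctrl. Its relative EGR2 had a log2 change of -5.03 for wt, -5.59 for SoF and -5.65 for Ctrl. The nuclear receptor NR4A2 changed by -2.47 for wt, -3.41 for SoF and -2.91 for Ctrl, and IER2 by -1.73 for wt, -1.96 for SoF and -1.92 for Ctrl, all called. ZFP36, which encodes a protein that destabilizes AU-rich mRNAs and is named here after its values were seen, was the 1 gene of the list called higher, in SoF (0.62, edgeR adjusted p = 0.0348). DUSP1, a MAPK phosphatase and known GR target, was lower in Ctrl (-1.40, adjusted p = 0.000156) and had values of -0.51 in wt and -0.41 in SoF that did not pass; it too was named after its values were seen. No gene of the list was called for a difference between lines in the 3 h response. Of all genes, 0% were called for SoF against wt, 0% for Ctrl against wt and 0.0127% for SoF against Ctrl.

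Of 19 genes of the MAPK pathway and of factors that drive FOS and JUN, all tested, 4 were called higher and 2 lower at 3 h for wt, 5 and 3 for SoF and 3 and 2 for Ctrl. As shares of the 19 these can be set against 6.60% called higher and 4.12% lower of all genes for wt, 11.2% and 8.11% for SoF and 8.58% and 5.60% for Ctrl. SRF, the factor that recruits ELK proteins to the FOS promoter, fell, with a log2 change of -2.17 for wt, -2.10 for SoF and -2.11 for Ctrl. The kinase gene MAP2K3, which acts on p38, fell, with a log2 change of -0.91 for wt, -1.25 for SoF and -1.0 for Ctrl. ELK3, a SRF partner that represses FOS until it is phosphorylated, rose by 1.28 for wt, 1.52 for SoF and 0.95 for Ctrl. MAP2K1, a kinase of the mitogen-responsive branch, rose by 0.89 for wt, 1.37 for SoF and 0.57 for Ctrl.

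Of 13 other bZIP genes that can join AP-1 dimers, 12 were tested and BATF was not, with at most 1 count in a library. At 3 h 1 was called higher and 2 lower for wt, 2 and 1 for SoF and 1 and 1 for Ctrl, beside 6.60%, 11.2% and 8.58% of all genes called higher and 4.12%, 8.11% and 5.60% called lower; with 12 genes tested, these counts are near those shares. MAFF, a small MAF protein without a transactivation domain, fell in each line, with a log2 change of -1.11 for wt, -1.06 for SoF and -1.05 for Ctrl. BATF3 rose by 1.39 for wt, 1.37 for SoF and 1.30 for Ctrl at levels between 1.61 and 11.2 CPM in all libraries. BATF2 fell in wt (-1.40, edgeR adjusted p = 0.0223) at no more than 4.85 CPM, and NFE2L1, named after its values were seen, rose in SoF (0.47, adjusted p = 0.0345). NFE2L2, the regulator of the oxidative stress response, had 0.38 for wt, 0.26 for SoF and 0.01 for Ctrl and did not pass.

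Genes known as AP-1 targets in other settings stood above 0 h by the median at 3 h after lower medians at 1 h. Of 16, 14 were tested, while MMP1 and MMP10 had at most 1 and 10 counts in a library, and 4 were called higher and 1 lower at 3 h for wt, 4 and 2 for SoF and 4 and 1 for Ctrl, beside 6.60%, 11.2% and 8.58% of all genes called higher and 4.12%, 8.11% and 5.60% called lower, with medians of 0.35, 0.15 and 0.46 on the log2 scale. At 1 h against 0 h 0 were called in any line and the medians were -0.54, -0.65 and -0.38, and from 1 to 3 h 7, 9 and 7 of the 14 were called higher and 0 lower. Of all 23651 genes, 3789 for wt, 7709 for SoF and 4008 for Ctrl were called in either direction from 1 to 3 h. Of those, 1578, 3554 and 1610 were lower. HBEGF, a ligand of the EGF receptor, rose by 1.90 for wt, 1.58 for SoF and 1.65 for Ctrl, from 79.9 and 73.2 CPM to 200.4 and 372 in wt. LIF, a cytokine of the IL-6 family, rose by 1.21 for wt, 1.05 for SoF and 1.05 for Ctrl. CCND1, the gene for cyclin D1, rose by 0.69 for wt, 0.72 for SoF and 0.52 for Ctrl. CD44 changed by 0.92 for wt, 0.57 for SoF and 0.76 for Ctrl, without passing in SoF (edgeR adjusted p = 0.0975). The gene called lower in all lines was MMP3, the matrix protease stromelysin, at no more than 17.7 CPM (-2.24 for wt, -2.94 for SoF and -2.10 for Ctrl), joined in SoF by the collagenase gene MMP13 (-1.47), both named after their values were seen.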

How the data were processed

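New RNA from 24 libraries of U2OS cells was isolated after 4-thiouridine labelling and sequenced. The authors deposited raw counts of reads per gene over exons. Per the labels and methods, unique molecular identifiers were handled with UMI-tools 1.1.2, reads trimmed with Trim Galore 0.6.6 and aligned with STAR 2.7.3a to hg38, duplicates removed, and reads counted with featureCounts against GENCODE annotation; only the title of the table speaks of strand. Replicates were not pooled, and 0 columns lacked a sample.

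Genes were matched to symbols by identifier with GENCODE 44, a later release than the authors used, for 61369 of 61533 (99.7%). Counts were tested with the quasi-likelihood F test of edgeR 4.0.16 in R 4.3.3 after TMM scaling and filterByExpr (minimum count 10, minimum total 15), in 1 fit over the 12 groups (23651 genes) and, for lines over all times, 1 fit on the line alone (21122 genes). P-values were adjusted by Benjamini-Hochberg over all genes tested and called under 0.05. The standard error is the log2 change divided by the square root of F. RPKM used exon-union lengths of GENCODE 44. With 2 libraries against 2 an exact permutation test cannot go below p = 0.333, so none was run. The scripts were tested on simulated data. Correlations used log2 CPM with a prior count of 2.

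Alternatives were no filter, size factors by relative log expression, DESeq2 1.42.0, a replicate block, that line only, the mean over the 4 times, and leaving out each library. Members and gene lists were chosen with earlier results of these data known. Comparisons of neighbouring treated times were added after the data were seen. Named genes were the 8 members, up to 4 genes per list ranked by p in the wt comparison of 3 h with 0 h, the 3 genes most like each member, and FKBP5, TSC22D3, PER1 and NR3C1 as checks. Depth per library is given with the results; precision is limited by 2 libraries per group. Some members of the gene lists are not reported here by name.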

Additional observations from a re-analysis of the deposited data

How the results depend on the processing

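All 18 calls of FOS, FOSB and ATF3 at 2 and 3 h against 0 h held under every alternative tried, and no called value of any member changed sign. With 1 library left out, the count of members called at 3 h against 0 h ran from 4 to 6 in wt (5 with all libraries), 5 to 6 in SoF (6) and 5 to 7 in Ctrl (6), and from 0 to 1 at 1 h in wt (0). It ran from 3 to 5 for 3 h against 1 h in SoF (6), 3 to 4 for 2 h against 1 h in SoF (5), and for 3 h against 2 h from 0 to 1 in wt (1), 0 to 2 in SoF (4) and 0 to 2 in Ctrl (2). Without the filter on low counts the members called were 4 in wt and 2 in SoF at 1 h against 0 h (0 and 0 with it), 8 in wt at 3 h against 0 h (5), 6 in wt at 2 h against 1 h (3), and for 3 h against 2 h 3 in wt (1) and 6 in Ctrl (2). Calls over all genes without the filter were 2877 in wt at 3 h against 0 h (2534 with it) and 3679 in wt at 2 h against 1 h (3201). For 3 h against 2 h they were 444 in wt (161) and 549 in Ctrl (271). The cause of these changes was not tested. DESeq2 called 1 member in wt at 1 h against 0 h and 5 in wt at 2 h against 1 h, where it called 3361 of all genes (3201 in the main fit). With that line only, 0 members were called in wt for 3 h against 2 h, and 16 of all genes (161 in the main fit). The mean over the 4 times in the fit over 12 groups called 1 member in each pair of lines (0 in the fit on the line alone). That mean called 5234 of all genes for SoF against wt, 3125 for Ctrl against wt and 2119 for SoF against Ctrl. The fit on the line alone called 1693, 1007 and 763. Over all genes, 37 were called in wt at 1 h against 0 h, 516 without the filter and 105 with DESeq2. In SoF these were 39, 245 and 79, and in Ctrl 11, 44 and 15. For wt at 2 h against 0 h 1089 were called and 1706 without the filter, and leaving out 1 library gave 144 to 1082. At 3 h against 0 h leaving out 1 library gave 953 to 1522 in wt (2534), 1772 to 5542 in SoF (4563) and 983 to 4560 in Ctrl (3354).

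Replicate numbers did not pair the libraries throughout: over 66 pairs of groups the deviations of same-numbered libraries correlated at -0.221 to 0.57 (median 0.038), with 21 pairs over 0.1 and 9 under -0.1. The 0 h groups did deviate together, at 0.396 (wt and SoF), 0.394 (wt and Ctrl) and 0.57 (SoF and Ctrl). This was not confined to 0 h. SoF at 0 h went with SoF at 1 h (0.369) and 2 h (0.434), and wt at 1 h with wt at 2 h (0.299). In contrast, wt and Ctrl at 1 h stood at -0.220. With the replicate number as a block, members called at 3 h against 0 h were 6 in wt, 7 in SoF and 7 in Ctrl, and 4 at 2 h in each line. Calls over all genes rose too, at 3 h to 2983 in wt, 5142 in SoF and 3791 in Ctrl (2534, 4563 and 3354 without the block). At 2 h they rose to 1433, 1666 and 2343 (1089, 1343 and 1881). The block added at 3 h JUNB in wt (adjusted p = 0.0477) and SoF (0.0413) and JUND in Ctrl (0.0498). The 2 libraries per group limit the precision; the lowest member count in a library was 25, for FOSB.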
